A study of Homo sapiens with 2 samples.

Results

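Epithelial-mesenchymal transition (EMT) is the shift of a cell from an epithelial state, held to its neighbours by junctions, to a motile mesenchymal state. The 10 genes described here were taken by name from the 19198 gene rows of the deposited tables and comprised 7 transcription factors (SNAI1, SNAI2, SNAI3, TWIST1, TWIST2, ZEB1 and ZEB2) and 3 readouts (CDH1, CDH2 and VIM). All 10 had a value above 0 in both libraries. Messenger RNA had been sequenced from 2 cultures. The sample labels and the study call both A549, a line that the study uses as a model of lung adenocarcinoma. A549-NICD1 overexpressed NICD1, the intracellular part of the NOTCH1 receptor that enters the nucleus after cleavage, and A549-Vector carried the vector control. For such lines the study's methods describe lentiviral delivery of the open reading frame and antibiotic selection, and do not state whether the sequenced cultures were clones. With 1 library per condition, the differences below could not be checked against replicates, and no p-value is given.

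SNAI, TWIST and ZEB factors are core drivers of the transition, in which they repress epithelial genes. The SNAI and ZEB proteins bind E-boxes through zinc fingers, the TWIST proteins bind E-boxes as basic helix-loop-helix dimers, and CDH1, which encodes the epithelial adhesion molecule E-cadherin, is their best known target. Loss of E-cadherin with gain of N-cadherin (CDH2) is called the cadherin switch, and vimentin (VIM), an intermediate filament protein, is a common mesenchymal marker. Notch signaling acts through the DNA-binding protein RBPJ, and SNAI1 and SNAI2 have been described as genes that it activates in other systems.

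Promoter sequence was available in a RefSeq table (build GRCh38.p14, 250 bases before to 50 after each start) for 5 of the 10 genes, namely TWIST2, ZEB1, ZEB2, CDH2 and VIM. No entry was found for SNAI1, SNAI2, SNAI3, TWIST1 and CDH1. The windows were searched on both strands for the E-box CAGGTG, to which SNAI and ZEB proteins bind, and for TGGGAA, the core of the RBPJ motif. These letters do not overlap each other in the sequences shown. The E-box was present in 2 of 7 ZEB1 windows and the RBPJ core in the single ZEB2 window, and neither occurred in the windows of TWIST2, CDH2 or VIM. Across all 35116 promoter windows, 20.6% held the E-box and 24.0% the RBPJ core, so both matches are common. A single match per gene is shown, because ZEB1 was the most abundant of the 7 factors in both libraries and ZEB2 holds the only RBPJ core found. The other ZEB1 window with the E-box, chr10:31318966-31319265, held 3 matches and is not shown. For ZEB1 the 250 bases before the most upstream RefSeq start are given (chr10:31318167-31318416, plus strand), with the E-box in capitals 57 bases before that start. For ZEB2 the 30 bases around the RBPJ core are given (chr2:144520313-144520342, minus strand), with the core in capitals in its reverse complement, 211 bases before the start.

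ZEB1: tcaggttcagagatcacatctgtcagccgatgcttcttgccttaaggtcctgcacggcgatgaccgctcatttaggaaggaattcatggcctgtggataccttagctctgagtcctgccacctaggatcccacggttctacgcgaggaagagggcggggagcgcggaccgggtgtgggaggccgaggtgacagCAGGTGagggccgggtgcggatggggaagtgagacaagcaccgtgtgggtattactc

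ZEB2: atcccagatcctTTCCCAgagagaaacttg

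The overexpressed gene was checked first. NOTCH1 was at 5.40 FPKM, that is, fragments scaled to gene length and library depth, in A549-Vector and at 2865 FPKM in A549-NICD1, which matches the labels. Depth was alike, at 48602848 reads for A549-Vector and 48528434 reads for A549-NICD1, as recovered from the values. The cells' identity was set beside marker genes. Of 22 genes listed as markers of A549 or lung epithelium, 15 were under 1 FPKM in both libraries. KRT7, KRT19, FGA and FGB were among those at 0 in both. Also under 1 FPKM, with A549-Vector first, were AKR1B10, at 0.026 and 0.013 FPKM, and ALDH1A1, at 0.27 and 0.17 FPKM. The same held for AKR1C2, at 0.26 and 0.16 FPKM, AKR1C3, at 0.58 and 0.62 FPKM, and GPX2, at 0.93 and 0.63 FPKM. KRT8, KRT18, EPCAM and MUC1 were above 1 FPKM, as were ALDH3A1, at 1.45 and 2.01 FPKM, and NKX2-1, at 4.67 and 3.74 FPKM. AKR1C1 was above it in A549-Vector only, at 1.15 and 0.553 FPKM. Of 12 genes listed as markers of embryonic kidney cell lines, 9 reached 1 FPKM in at least 1 library, from SOX11 at 1.68 and 2.24 FPKM to CDKN2A at 139 and 138 FPKM. The summed level of the lung list was 174 FPKM in A549-Vector against 320 FPKM in A549-NICD1, and that of the kidney list was 262 and 246 FPKM. KRT8 and KRT18, keratins of simple epithelia in general, made up most of the lung sum, and the remaining 20 genes summed to 14.6 and 13.8 FPKM, while the kidney list without CDKN2A summed to 123.1 and 107.9 FPKM. The name A549 is therefore used below as the label of the cultures. Whether the cultures were A549 was not tested, nor was the part of cell identity in the results below.

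Differences are given as log2(FPKM + 0.1) in A549-NICD1 minus the same in A549-Vector, after the A549-NICD1 values were scaled so that most genes centre on 0, which adds up to 0.06 to a log2 difference, less for low genes. Intervals are 95% Clopper-Pearson intervals on recovered reads and cover counting error only. A gene was called at a 2-fold difference, that is, a log2 difference of 1 or more in size, among the 12449 genes that reached 1 FPKM in at least 1 library. All 10 genes passed this filter, SNAI2 only through its level in A549-NICD1. SNAI2 was called higher and no gene of the 10 was called lower, against 0.819% of all tested genes called higher and 0.329% called lower.

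The SNAI family held the largest difference. SNAI2, also known as Slug, was at 0.536 FPKM in A549-Vector and at 9.68 FPKM in A549-NICD1, from 55 and 992 reads. The deposited level in A549-NICD1 was thus 18.1 times that in A549-Vector. After scaling and with the pseudocount, the log2 difference was 3.999 (interval 3.66 to 4.35). It ranked 6 among the 12449 tested genes by log2 difference, and its place among all genes by level went from 13042 to 7120. The values are averages over a culture, so more cells with SNAI2 RNA cannot be told apart from more SNAI2 RNA per cell. SNAI2 lies on chromosome 8 at 48917604 to 48921740 on the minus strand (GENCODE 29, GRCh38), and no 100-base window of its longest transcript occurred in another gene. The 3 tested genes nearest to SNAI2 in log2 difference, over these 2 libraries, were HES5, at 7.78 and 115 FPKM, ANKRD1, at 8.40 and 120 FPKM, and SCGB1A1, which was listed at 0 in A549-Vector and stood at 1.64 FPKM in A549-NICD1, so that its log2 difference is set by the pseudocount. HES5 encodes a Notch-induced repressor, ANKRD1 a cardiac ankyrin repeat protein and SCGB1A1 a secretoglobin of airway club cells.

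SNAI1, or Snail, the founding member of the family, was at 1.11 FPKM in A549-Vector and at 2.01 FPKM in A549-NICD1, from 92 and 167 reads. Its log2 difference of 0.86 (interval 0.51 to 1.22) was above 0 beyond counting error and below the 2-fold threshold, which lay inside the interval. Genes at this level scatter widely between 2 single libraries. Among 1880 tested genes whose mean level lay within a factor of 2 of that of SNAI1, 5.80% differed at least as far in either direction, SNAI1 included. SNAI1 lies on chromosome 20 at 49982999 to 49988886 on the plus strand.

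SNAI3, the third member, pointed the other way. It was at 2.53 FPKM in A549-Vector and at 1.48 FPKM in A549-NICD1, from 211 and 123 reads, a log2 difference of -0.68 (interval -0.999 to -0.37). Among 2285 genes at a like level, 8.18% differed at least as far. The gene lies on chromosome 16 at 88677682 to 88686493 on the minus strand. The antisense gene SNAI3-AS1 covers 9.41% of its exon bases, and reads of the pair cannot be told apart unless strand was used in counting. The study describes strand-specific sequencing, and the strand setting of the counting is not given in the sources used here.

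As a family, the SNAI genes summed to 4.18 FPKM in A549-Vector against 13.2 FPKM in A549-NICD1, and their order was turned around. In A549-Vector, SNAI3 gave 60.7% of the summed level, SNAI1 26.5% and SNAI2 12.8%. In A549-NICD1, SNAI2 gave 73.5%, SNAI1 15.3% and SNAI3 11.2%. The ratio of SNAI2 to SNAI1 was 0.484 in A549-Vector and 4.81 in A549-NICD1, 9.94 times as high (counting interval 6.85 to 14.4), so the family did not move as a block. The ratio of SNAI2 to SNAI3 went from 0.211 to 6.54, 30.9 times as high (interval 21.8 to 44.0).

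**Figure D1:**
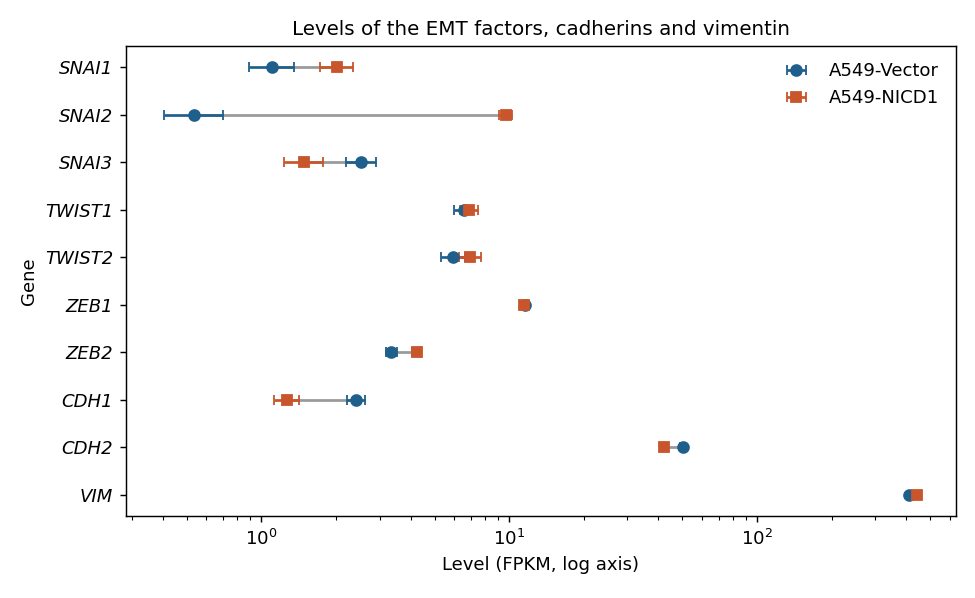
Level of each gene in FPKM on a log axis, with circles for the A549-Vector library, squares for the A549-NICD1 library and bars for the 95% Poisson counting interval of each value. SNAI2 runs from 0.536 to 9.68 FPKM, while each of the other 6 factors differs far less between the libraries and VIM has the highest level in both.

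The TWIST genes differed little. TWIST1 was at 6.55 FPKM in A549-Vector and at 6.91 FPKM in A549-NICD1, from 530 and 559 reads, a log2 difference of 0.13 whose interval of -0.04 to 0.31 held 0. TWIST2 was at 5.94 and 6.97 FPKM, from 329 and 385 reads, with a log2 difference of 0.28 (interval 0.07 to 0.49). Among genes at a like level, 52.3% of 4404 differed at least as far as TWIST1 and 22.8% of 4322 at least as far as TWIST2. The paralogs were expressed at nearly the same level, with TWIST1 at 1.10 times TWIST2 in A549-Vector and 0.993 times in A549-NICD1. Their counting intervals overlapped in both libraries, so neither can be called the more abundant. TWIST1 lies on chromosome 7 at 19020991 to 19117672 and TWIST2 on chromosome 2 at 238848032 to 238910543. No 100-base window of either transcript occurred in another gene. On the opposite strand, AC003986.2 covers 6.94% of the exon bases of TWIST1.

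ZEB1 was the most abundant of the factors in both libraries, at 11.6 FPKM in A549-Vector against 11.4 FPKM in A549-NICD1, from 3475 and 3434 reads. Its log2 difference was 0.04 (interval -0.03 to 0.11), and without scaling it was -0.01, so that no direction can be given. Among 5225 genes at a like level, 81.6% differed at least as far. ZEB2, its paralog, was at 3.34 and 4.23 FPKM, from 1495 and 1891 reads, a log2 difference of 0.39 (interval 0.29 to 0.48). Among 3202 genes at a like level, 18.1% differed at least as far as ZEB2. The ratio of ZEB1 to ZEB2 was 3.46 in A549-Vector and 2.71 in A549-NICD1, lower by a factor of 0.781 (interval 0.719 to 0.849). ZEB1 lies on chromosome 10 at 31318495 to 31529814 and ZEB2 on chromosome 2 at 144364364 to 144524583. The antisense genes ZEB1-AS1 and ZEB2-AS1 cover 4.23% and 5.18% of their exon bases.

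Summed over the 7 factors, the level was 31.6 FPKM in A549-Vector against 42.7 FPKM in A549-NICD1. ZEB1 made up 36.6% of this sum in A549-Vector and 26.8% in A549-NICD1, whereas SNAI2 went from 1.70% to 22.6%. By level, the order of all 10 genes in A549-Vector was VIM, CDH2, ZEB1, TWIST1, TWIST2, ZEB2, SNAI3, CDH1, SNAI1 and SNAI2. Neighbours whose counting intervals overlapped were TWIST1 with TWIST2 and SNAI3 with CDH1. In A549-NICD1 the order was VIM, CDH2, ZEB1, SNAI2, TWIST2, TWIST1, ZEB2, SNAI1, SNAI3 and CDH1. SNAI2 moved from the last place among the 10 to the fourth, and the overlapping neighbours were TWIST2 with TWIST1, SNAI1 with SNAI3, and SNAI3 with CDH1.

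**Figure D2:**
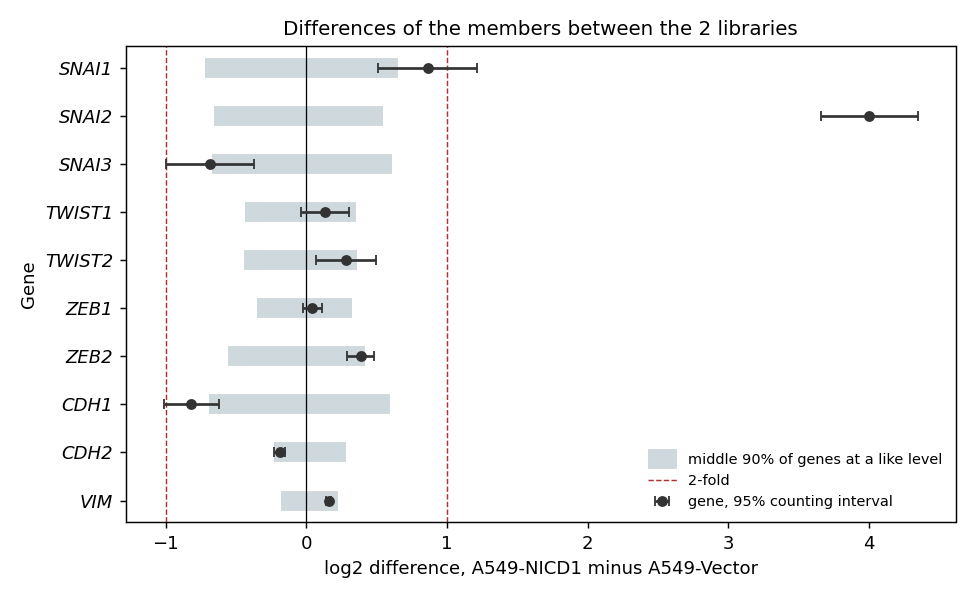
Difference of each gene between the libraries on the log2 scale, with points for the value, bars for the 95% counting interval, grey bands for the middle 90% of tested genes within a factor of 2 in mean level, and dashed lines at 2-fold. SNAI2 at 3.999 lies beyond 2-fold, SNAI1 at 0.86, CDH1 at -0.82 and SNAI3 at -0.68 lie just outside their bands, and the remaining genes lie inside.

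Among the readouts, CDH1 was the gene with the lowest log2 difference of the 10. It was at 2.41 FPKM in A549-Vector and at 1.27 FPKM in A549-NICD1, from 556 and 293 reads, a log2 difference of -0.82 (interval -1.02 to -0.62). The value did not reach the 2-fold threshold, although the interval did. Among 2141 genes at a like level, 4.95% differed at least as far. E-cadherin RNA was thus low in both cultures, and its place among all genes by level was 10987 in A549-Vector and 11863 in A549-NICD1. CDH1 lies on chromosome 16 at 68737225 to 68835548 on the plus strand, and the antisense gene AC099314.1 covers 5.62% of its exon bases.

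In both libraries CDH2 had the highest level of the 18 classical cadherins listed, and it was not higher in A549-NICD1. It was at 50.1 FPKM in A549-Vector and at 42.2 FPKM in A549-NICD1, from 9962 and 8377 reads, a log2 difference of -0.19 (interval -0.23 to -0.15). The difference was beyond counting error and small for the 2 libraries, since 20.7% of 3048 genes at a like level differed at least as far. CDH2 exceeded CDH1 by 20.8 times in A549-Vector and by 33.2 times in A549-NICD1. This ratio was 1.596 times as high in A549-NICD1 (interval 1.38 to 1.84), with both cadherins lower in that library. CDH2 lies on chromosome 18 at 27950966 to 28177446 on the minus strand, and the antisense gene AC110015.1 covers 2.75% of its exon bases.

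VIM was among the most abundant transcripts in either culture, ranking 90 of all genes in A549-Vector and 83 in A549-NICD1. It was at 411 FPKM and 441 FPKM, from 42687 and 45713 reads, a log2 difference of 0.16 (interval 0.14 to 0.18). The difference exceeded counting error, and 16.05% of 162 genes at a like level differed at least as far. Vimentin RNA stood at 171 times CDH1 in A549-Vector and 347 times in A549-NICD1. VIM lies on chromosome 10 at 17228259 to 17237593, where the antisense gene VIM-AS1 covers 12.4% of its exon bases, and AL133415.1 also overlaps it on the opposite strand.

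The median log2 difference of the 10 genes was 0.15, beside -0.01 for all tested genes. Lists of related genes were set beside the members. Of 16 other factors linked to EMT, 15 were in the files and 12 were tested, and none passed 2-fold. FOXC2, a mesenchymal forkhead factor, was at 1.06 and 1.86 FPKM and ETS1 at 3.08 and 5.21 FPKM, while SOX4 was at 62.4 and 45.6 FPKM. Their median was -0.02. Of 15 factors that maintain the epithelial state, 8 were tested, 1 was called higher and none lower, with a median of -0.07. The called gene was KLF4, a zinc finger factor of epithelial and pluripotent cells, at 2.42 FPKM in A549-Vector against 5.58 FPKM in A549-NICD1. The epithelial splicing regulators ESRP1, at 1.41 and 0.892 FPKM, and ESRP2, at 9.82 and 6.99 FPKM, had the lowest log2 differences among the tested genes of this list, at -0.55 and -0.43. Levels within the list differed widely, and 7 of the 15 were under 1 FPKM in both libraries. GRHL2, ELF3 and EHF, regulators found in many epithelia, were under 0.05 FPKM in both. In contrast, CDX2 was at 23.9 and 20.7 FPKM, KLF5 at 13.0 and 12.7 FPKM and FOXA1 at 11.5 and 8.85 FPKM.

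Genes for proteins through which the SNAI and ZEB factors act were set beside them, where 98.85% of all tested genes lay within 2-fold. All 21 corepressor genes were tested and none passed 2-fold, with log2 differences from -0.23 for LOXL2 to 0.40 for WTIP. Of 18 genes for the turnover of the factors' proteins, 17 were tested and none passed 2-fold, with values from -0.24 for BTRC, a ubiquitin ligase subunit that recognises SNAI1, to 0.11 for FBXO45. Of 19 genes of the TGF-beta pathway, which induces these factors in many epithelia, 16 were tested and none was called. SMAD3 was at 12.8 FPKM in A549-Vector against 15.9 FPKM in A549-NICD1, TGFB1 at 25.1 and 29.95 FPKM, SMAD6 at 20.3 and 15.3 FPKM and the co-receptor TGFBR3 at 6.26 and 3.84 FPKM.

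Among 18 classical cadherins, CDH1 and CDH2 included, 6 were tested and none was called, with a median of -0.41. CDH7 was at 1.62 FPKM in A549-Vector against 0.823 FPKM in A549-NICD1, CDH3 at 1.31 and 0.780 FPKM, CDH4 at 2.24 and 2.02 FPKM and CDH24 at 4.99 and 5.56 FPKM. In each library CDH2 was the only classical cadherin of the list above 10 FPKM. Of 26 catenin and desmosomal genes, 16 were tested and none was called. Desmoplakin (DSP), which anchors intermediate filaments at desmosomes, came closest, at 53.2 FPKM in A549-Vector against 101 FPKM in A549-NICD1, and desmocollin DSC3 was at 18.0 and 24.5 FPKM. PKP2 was at 14.0 and 9.57 FPKM and PPL at 1.64 and 1.06 FPKM. Of 33 tight junction and polarity genes, 32 were in the files and 24 were tested, and none was called, with TJP3 at 2.56 and 1.53 FPKM, CLDN6 at 5.51 and 3.35 FPKM and LSR at 17.1 and 20.6 FPKM. Their median was -0.12.

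Of 33 mesenchymal markers, 17 were tested, CDH2 and VIM included. None was called higher and 1 was called lower, and their median was -0.19. The called gene was COL3A1, a fibrillar collagen chain, at 3.30 FPKM in A549-Vector against 1.40 FPKM in A549-NICD1, and COL1A1 was at 11.1 and 7.40 FPKM. SPARC was at 55.9 and 71.0 FPKM and CD44 at 1.57 and 2.13 FPKM. Markers of fibroblasts and related cells were low, with 8 of 10 under 1 FPKM in both libraries and a summed level of 16.5 FPKM in A549-Vector against 10.5 FPKM in A549-NICD1. Among the type III intermediate filaments, 3 were tested and none was called, and besides VIM these were PRPH, at 2.16 and 1.26 FPKM, and GFAP, at 1.74 and 1.06 FPKM. The simple epithelial keratins KRT8 and KRT18, which pair with each other in filaments, were at 86.0 and 73.1 FPKM in A549-Vector and at 176 and 130 FPKM in A549-NICD1. KRT8 passed 2-fold and KRT18, with a log2 difference of 0.89, did not.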

How the data were processed

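The authors deposited 1 FPKM value per gene for each of 2 libraries of polyA RNA, described as strand-specific. The unit was read from the values. The submitters' processing notes name Bowtie2, HTSeq and build hg38, while versions, the strand setting of the counting and annotation are not given in the sources used here. Another 27 rows, named by a date number in place of a gene, were not used. Ratios between the libraries fell on a constant, 1.001533, times ratios of whole numbers, which gave relative depth. Depth was searched within a fixed range. It was the whole number at which the most gene lengths came out whole with reads in lowest terms (68.0% of 300 genes). Reads with a common factor need not give a whole length. The reads of a gene were the smallest whole numbers that gave a whole length of at least 200 bases. At these reads, doubling the length of any of the 10 genes would exceed its longest GENCODE 29 transcript. A549-NICD1 values were divided by 0.962, a trimmed mean of ratios (30% of ratios and 5% of levels cut at each end), which bears on small differences, and the pseudocount of 0.1 FPKM understates changes of low genes. The intervals of ratios between genes use the normal approximation to log read counts. The recovery of depth and reads, the scaling, the log2 differences and their intervals were tried on simulated reads. The simulated depths lay inside the range searched, so the trial does not cover depths outside it. The other steps were not tried in this way. Python 3.11.15 and scipy 1.17.1 were used. The members and gene lists were chosen with earlier results of these data known. Outside the members, genes were named from the 2 highest and 2 lowest tested genes of each list. NOTCH1 and the 3 tested genes nearest to SNAI2 were also named. Others were chosen after their values were seen, namely markers at or near 0, further lung and kidney markers, epithelial factors at higher levels and other cadherins. Some genes of these lists are not reported here. Alternatives covered scaling, pseudocount and level filter.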

Additional observations from a re-analysis of the deposited data

How the results depend on the processing

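SNAI2 was the only gene of the 10 called higher, and none was called lower, under each scaling, pseudocount and filter tried, although only 6 of the 10 genes passed a filter on a mean of 5 FPKM, SNAI2 among them only through its level in A549-NICD1. Of 50 member values recomputed under 5 alternatives, 46 stayed inside the counting interval. A pseudocount of 1 FPKM brought SNAI2 to 2.85 and CDH1 to -0.55, and values without scaling brought CDH2 to -0.25 and VIM to 0.10. A pseudocount of 0.5 recovered reads, chosen after seeing the data, gave the highest value of SNAI2, 4.22. Against 102 genes called higher and 41 called lower of 12449 tested, a pseudocount of 1 FPKM gave 45 and 7 of the same 12449. No filter beyond a value above 0 gave 371 and 144 of 17178, and a mean of 5 FPKM gave 33 and 7 of 9342. KLF4 and COL3A1 were no longer called with a pseudocount of 1 FPKM, and were under a mean of 5 FPKM. No paired analysis was possible because only 1 library represented each condition. Depth limits low genes most, and variation between cultures cannot be estimated.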
